A study of Mus musculus with 24 samples.

Results

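Complement genes transcribed in cultured fibroblasts were followed in 6 RNA-seq libraries of primary MEFs, mouse fibroblasts cultured directly from embryos. The 9 genes, of 45706 in the deposited gene table, were taken by symbol: the proteases C1ra and Masp1, the C1 inhibitor Serping1, the components C3, C4b and Cfb, and the membrane regulators Cd55, Cd59a and Cd46. They were picked as complement proteases, components and regulators outside C1q. The cells were cGAS KO or WT, of the strain written C57B1/6 in the labels, and all groups had been serially passaged under 20% oxygen. cGAS, encoded by Mb21d1, is the enzyme that senses DNA in the cytosol, and the series' title ties it to senescence, the lasting growth arrest of stressed cells. RNA was sampled on days 33, 36 and 42, labelled as passages 11, 12 and 14, in both genotypes. The 4 numbered columns given for a genotype and day differed by less than the sampling noise and were summed into 1 library, which leaves n = 3 libraries per genotype and n = 1 per genotype and day. How many embryos or lines stood behind a genotype is not given in the sources used here.

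Complement is a cascade of blood and tissue proteins that marks particles for removal and can pierce membranes. C1q or lectins bind a target and switch on paired proteases (C1r and C1s, or the MASPs), which cleave C4 and C2 into an enzyme that cleaves C3, and factor B builds a second such enzyme that amplifies the reaction. Host cells hold it in check with the serpin C1 inhibitor, with CD55 and CD46 acting on the C3-cleaving enzymes, and with CD59 acting on the membrane pore. The liver makes most circulating complement, and fibroblasts are known to secrete C1r, C1s, C1 inhibitor and C3, several of them more strongly under interferon gamma or inflammatory cytokines.

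Promoters of 5 of the 9 genes were matched by symbol in the RefSeq table of build GRCm38.p6, each spanning 250 bases before to 50 bases after the annotated start. Those of C3, C1ra, Cd55 and Cd59a are shown, since Cd59a holds the call between the genotypes and the other 3 differ several-fold between genotypes on single days. Capitals mark every match, on either strand, to NF-kB-like letters (GGGNNNNNCC or GGGNNNNCC), C/EBP-like letters (TTNNGNAA), an interferon gamma activated element (TTCNNNGAA), an interferon-stimulated element (GAAANNGAAA) or a TATA box (TATAAA), and overlapping matches run together.
C3, chr17:57228087-57228386, minus strand: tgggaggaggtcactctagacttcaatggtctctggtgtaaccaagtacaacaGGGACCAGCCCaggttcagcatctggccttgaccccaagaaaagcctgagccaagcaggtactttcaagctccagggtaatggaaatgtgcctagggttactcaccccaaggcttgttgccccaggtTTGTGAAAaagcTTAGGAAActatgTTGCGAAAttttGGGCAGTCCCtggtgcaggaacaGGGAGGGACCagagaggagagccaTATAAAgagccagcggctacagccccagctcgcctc
C1ra, chr6:124512371-124512670, plus strand: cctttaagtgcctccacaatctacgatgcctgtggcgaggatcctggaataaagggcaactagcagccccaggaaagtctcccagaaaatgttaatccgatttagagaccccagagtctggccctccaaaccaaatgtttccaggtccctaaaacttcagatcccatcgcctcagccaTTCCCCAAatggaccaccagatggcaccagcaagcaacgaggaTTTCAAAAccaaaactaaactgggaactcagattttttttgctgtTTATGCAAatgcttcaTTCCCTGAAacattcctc
Cd55, chr1:130462695-130462994, minus strand: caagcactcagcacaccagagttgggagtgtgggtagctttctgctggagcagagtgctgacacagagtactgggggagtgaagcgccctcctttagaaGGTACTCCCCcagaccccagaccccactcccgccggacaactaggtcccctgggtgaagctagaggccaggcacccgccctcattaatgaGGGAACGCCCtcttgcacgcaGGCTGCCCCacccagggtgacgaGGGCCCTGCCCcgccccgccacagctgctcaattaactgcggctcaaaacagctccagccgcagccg
Cd59a, chr2:104095551-104095850, plus strand: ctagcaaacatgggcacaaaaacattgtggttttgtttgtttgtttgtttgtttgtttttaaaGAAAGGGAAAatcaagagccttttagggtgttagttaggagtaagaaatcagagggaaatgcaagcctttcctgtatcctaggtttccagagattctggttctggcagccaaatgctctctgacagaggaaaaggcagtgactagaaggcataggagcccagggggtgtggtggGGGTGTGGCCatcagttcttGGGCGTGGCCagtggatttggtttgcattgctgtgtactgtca
In the C3 window the C/EBP-like matches began 70, 58 and 45 bases before the annotated start, an NF-kB-like match followed at 33 bases before it, and the TATA letters began 15 bases after it. The C1ra window held C/EBP-like letters at 72 and 29 bases before and 17 bases after its RefSeq start, and the interferon gamma activated letters 33 bases after it. GENCODE M21 begins C1ra upstream of that start, at 124512405, a position inside the window. The C1ra positions therefore hold for the RefSeq start alone, and much of the window lies within the GENCODE gene. The Cd55 window held NF-kB-like letters only and was 63.3% G or C, against a median of 52.7% over all promoters of the table. The Cd59a window held the interferon-stimulated letters 187 bases before its start and NF-kB-like letters at 13 bases before and 8 bases after it. Of 32851 promoters of the same length, 50.8% held GGGNNNNNCC, 43.8% GGGNNNNCC, 40.7% TTNNGNAA, 8.30% TTCNNNGAA, 3.44% GAAANNGAAA and 13.6% TATAAA, so that most of these matches are common, and each match is a description of letters only.

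The libraries held 25651250 to 36447639 counts in KO and 35025184 to 48717439 in WT. The targeted gene Mb21d1 was at 0 to 0.239 CPM in KO and at 4.08 to 4.81 CPM in WT, where CPM are read counts brought to a common library size after TMM scaling. The genotypes also differed in sex-linked transcripts: Xist was at 465 to 640 CPM in KO and 0.0573 to 0.363 CPM in WT, and Uty at 2.69 to 2.91 CPM in KO and 29.9 to 32.0 CPM in WT, so that genotype and sex of the embryos cannot be told apart. Fibroblast collagen was abundant in all libraries (Col1a1, 6971 to 10290 CPM in KO and 8625 to 9745 CPM in WT). The summed level of 16 macrophage markers was 78.9, 10.3 and 8.01 CPM in KO on days 33, 36 and 42, and 175, 46.3 and 23.5 CPM in WT. Of the WT sums, Cd53 made up 12.8, 10.8 and 12.5 CPM. In KO 0, 3 and 8 of the 16 were at 0 on the 3 days, the lysozyme gene Lyz2 among the 8, and in WT none was. Of 7 hepatocyte markers, 5 were at 0 in each KO library and 3 to 4 in each WT library, and the list summed to 0.355 to 0.709 CPM in KO and 0.430 to 0.982 CPM in WT.

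On the length-scaled RPKM scale deposited by the authors, Masp1 had the highest level of the 9 genes, at 18.6 RPKM averaged over the 6 libraries. Cd59a averaged 5.63 RPKM and Serping1, Cd55 and C1ra 2.30, 2.28 and 2.19 RPKM, and the ranges of these 4 genes over libraries overlapped. In KO Cd59a averaged 8.01 RPKM against 1.53 to 1.61 RPKM for the other 3, while in WT Cd59a was at 3.24 RPKM, close to Cd55 at 3.02, Serping1 at 2.99 and C1ra at 2.82 RPKM. The remaining 4 stayed under 1 RPKM in every library: C3 averaged 0.126, Cfb 0.109, C4b 0.0986 and Cd46 0.0373 RPKM, again with overlapping ranges. In mice CD46 is known mainly from testis, and its task in other tissues falls to the related regulator Cr1l (Crry), which was at 23.3 to 29.1 CPM in KO and 23.1 to 30.5 CPM in WT.

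**Figure D1:**
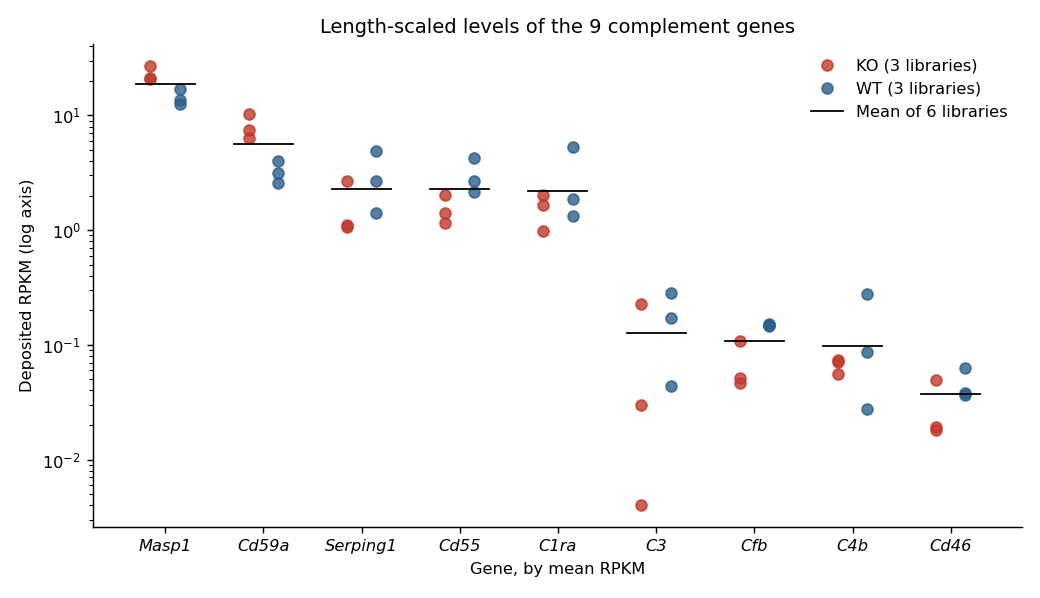
Deposited RPKM (log axis) of the 9 complement genes in each library, KO points left of WT points, with a line at the mean of the 6 libraries. Masp1 stands at the top with a mean of 18.6 RPKM, and C3, Cfb, C4b and Cd46 stay under 1 RPKM in every library.

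KO was first compared with WT over the 3 days, which asks whether loss of cGAS goes with another complement output of the cultures. Of the 9 genes, 1 passed the test: Cd59a, which blocks the last step of the membrane pore, was higher in KO. The protease Masp1 was also higher in every KO library, and Cd55 lower, without reaching the threshold. C1ra, Serping1, C3 and C4b overlapped between the genotypes, and C3 had a single count in KO on day 36. By edgeR's quasi-likelihood test 8 of the 9 had enough counts to be tested, 1 was called higher and 0 lower at an adjusted p below 0.05, against 8.72% of all 17233 genes tested (4.07% higher and 4.65% lower). An unadjusted p below 0.05 was reached by 3 of the 8 and by 4700 of the 17233 genes. The median log2 fold change of the 8 was -0.91, with 6 below 0, against a median of -0.01 and 8766 genes below 0 among all tested. KO and WT values did not overlap for 4 of the 9 genes, 3 of them tested, while 34.3% of all tested genes did not overlap.

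**Figure D2:**
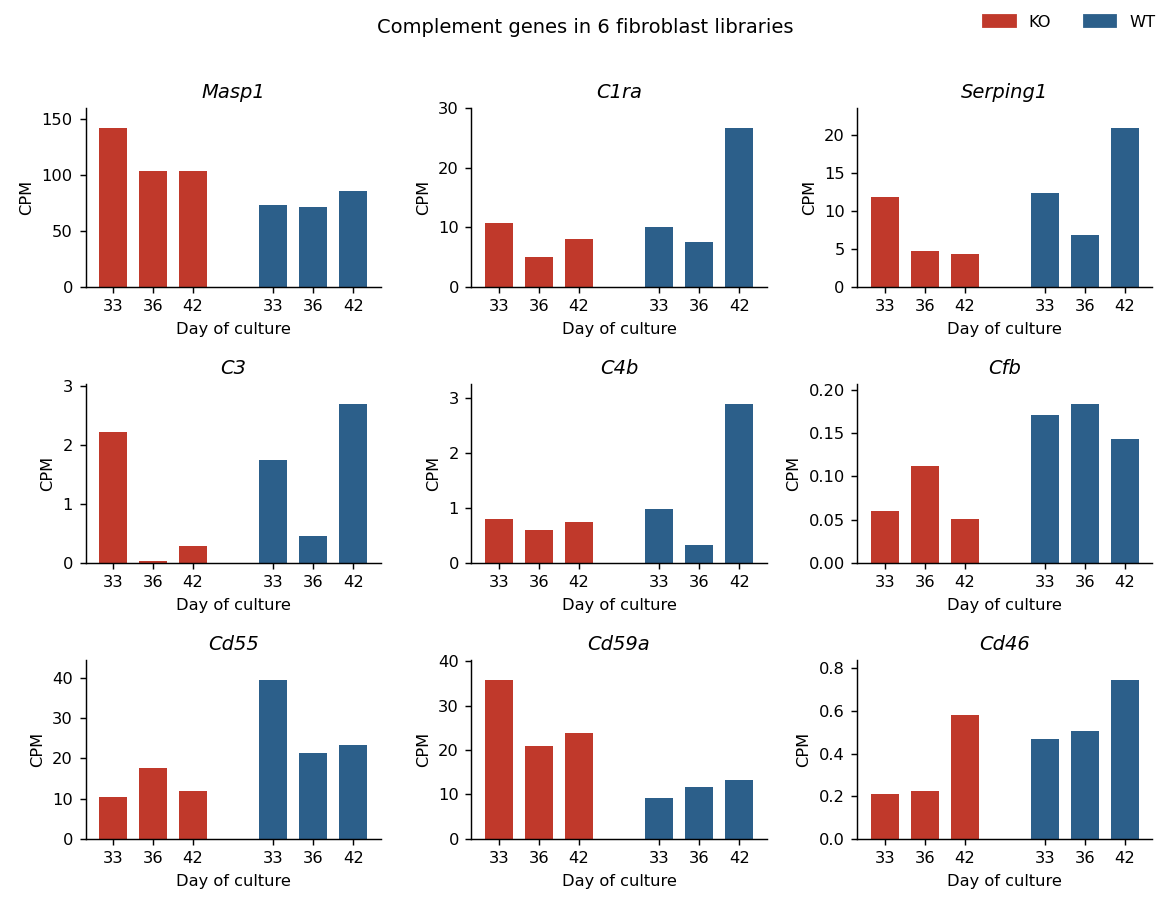
CPM of the 9 complement genes in each library, with KO bars left of WT bars and days 33, 36 and 42 in order within a genotype. Cd59a and Masp1 are higher in all KO bars than in any WT bar, Cd55 and the barely counted Cfb are lower, and C1ra, Serping1, C3 and C4b have their highest bar in WT on day 42.

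Cd59a (ENSMUSG00000032679, GRCm38 chromosome 2, 104095801 to 104115354, plus strand) encodes the mouse CD59 that is widely expressed, a lipid-anchored surface protein that stops C9 from completing the pore. Its level was 35.7, 20.96 and 23.8 CPM in KO on days 33, 36 and 42, against 9.13, 11.8 and 13.2 CPM in WT. All KO libraries lay above all WT libraries, and the gap was widest on day 33. The means were 26.8 ± 7.84 CPM in KO and 11.4 ± 2.08 CPM in WT (SD, n = 3 each), and the log2 fold change was 1.24 ± 0.24 (SE; adjusted p = 0.0308, edgeR). The call was lost without KO day 36 (adjusted p = 0.0787), KO day 42 (0.0943), WT day 33 (0.109) or WT day 36 (0.0776), and with day as a factor (0.0738), while the log2 fold change stayed between 0.98 and 1.39 over the 6 fits that left out 1 library. The neighbouring copy Cd59b, known mainly from testis, was at 7.54, 4.18 and 4.59 CPM in KO and 1.86, 2.68 and 3.78 CPM in WT (0.97 ± 0.34, adjusted p = 0.126). The transcripts of Cd59a shared 3.87% of their 50-base words with those of Cd59b. The part of Cd59a reads in the lower Cd59b values was not tested. Among the 5 of 10280 genes that followed Cd59a most closely over the 6 libraries were Hunk, Mboat1 and Sulf1, at root mean square distances of 0.18, 0.22 and 0.24 in centred log2 CPM.

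Cd55 (ENSMUSG00000026399, chromosome 1, 130439027 to 130462744, minus strand) encodes decay-accelerating factor, which takes the C3-cleaving enzymes apart on the cell's own surface. It was at 10.5, 17.6 and 11.9 CPM in KO and 39.4, 21.2 and 23.3 CPM in WT. No KO library reached a WT library, and WT on day 33 was the highest. The log2 fold change of -1.07 ± 0.30 missed the threshold (adjusted p = 0.0795 by edgeR), while DESeq2 gave an adjusted p of 0.00605. Its near copy Daf2 had 3.77, 6.34 and 3.98 CPM in KO and 12.6, 6.74 and 8.42 CPM in WT (-0.99 ± 0.31, adjusted p = 0.0986). The order of the libraries within each genotype was the same for both copies, whose transcripts share 8.0% of their 50-base words. Cd46 (ENSMUSG00000016493, chromosome 1, 195036826 to 195092249, minus strand), a cofactor for the breakdown of C3b and C4b, had 7, 6 and 23 counts in KO and 22, 22 and 26 counts in WT, too few for a firm comparison (-0.70 ± 0.45, adjusted p = 0.368). The 3 membrane regulators thus had unlike values: Cd59a was called higher in KO, Cd55 had lower values without being called, Cd46 was near the limit of counting, and Cr1l differed by 0.02 ± 0.14 (adjusted p = 0.945).

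Masp1 (ENSMUSG00000022887, chromosome 16, 23449417 to 23520815, minus strand) encodes MASP-1, the protease that starts the lectin pathway, and MASP-3, which activates factor D. It was at 142, 104 and 104 CPM in KO and 73.2, 71.2 and 86.0 CPM in WT. Every KO library was above every WT library, and the genotypes came closer from day 33 to day 42, with CPM 1.94-fold higher in KO on day 33 (95% counting interval 1.86 to 2.03), 1.46-fold on day 36 (1.39 to 1.54) and 1.21-fold on day 42 (1.15 to 1.27). The log2 fold change over the days was 0.60 ± 0.15 (adjusted p = 0.0593 by edgeR, not called, against 0.00600 by DESeq2 and 0.0340 by edgeR with plain library totals). The deposited tables hold 1 transcript of this gene, of 2768 bases, against 4 in GENCODE M21, so that the forms for MASP-1 and MASP-3 were not split. Of the lectins that bind MASPs, Mbl1 was at 0 in all libraries, which allows up to 0.117 CPM of the library total in KO and 0.0857 in WT (3 counts). Mbl2, Fcnb and Colec11 stayed under 0.15 CPM in each library, and Fcna and Colec10 under 1 CPM. The membrane collectin Colec12, a scavenger receptor, was far higher, at 131, 84.0 and 79.4 CPM in KO and 179, 109 and 242 CPM in WT (-0.85 ± 0.33, adjusted p = 0.154 by edgeR and 0.0451 by DESeq2).

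C1ra (ENSMUSG00000055172, chromosome 6, 124512405 to 124523443, plus strand) encodes C1r, the protease that is activated first in the C1 complex and then cleaves C1s. It was at 10.7, 5.04 and 8.06 CPM in KO and 10.1, 7.49 and 26.7 CPM in WT. WT on day 42 stood above the other 5 libraries. The KO over WT ratio was 1.06 on day 33 (counting interval 0.923 to 1.22) and 0.672 on day 36 (0.546 to 0.824), and on day 42 KO was 3.31-fold lower (2.91 to 3.77). The log2 fold change of -0.89 ± 0.52 did not pass the test (adjusted p = 0.328). C1ra shares 48.0% of its 50-base words with C1rb, and the counts of both were nearly equal in every library (C1rb, 9.99, 4.70 and 7.50 CPM in KO and 9.56, 7.01 and 24.95 CPM in WT), so that reads of the pair may have been split and the single values are uncertain. Summed, C1ra and C1rb reached 20.7, 9.73 and 15.6 CPM in KO and 19.6, 14.5 and 51.6 CPM in WT (-0.90 ± 0.52, adjusted p = 0.321). C1s1 and C1s2, the genes for the partner protease C1s that cleaves C4 and C2, share 21.8% of their words and summed to 12.5, 9.47 and 10.5 CPM in KO and 16.7, 12.6 and 55.9 CPM in WT (-1.38 ± 0.56, adjusted p = 0.175). Both pairs were highest in WT on day 42. C1rl, a related protease of less defined function, was the single gene called among 30 tested of 53 other complement genes: it was at 3.26, 3.17 and 2.66 CPM in KO and 6.25, 4.90 and 9.68 CPM in WT, and fell in KO, with a log2 fold change of -1.196 ± 0.27 (adjusted p = 0.0459). The call of C1rl was lost without KO day 33 (adjusted p = 0.0722), KO day 36 (0.162), KO day 42 (0.163) or WT day 33 (0.121), with day as a factor (0.0738), with plain library totals (0.0608) and in limma-voom (0.0617), and its sign stayed negative in each.

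Serping1 (ENSMUSG00000023224, chromosome 2, 84765387 to 84775444, minus strand) encodes C1 inhibitor, which inactivates C1r, C1s and the MASPs. Its level was highest in the same WT library of day 42 as that of C1ra, with 11.8, 4.70 and 4.36 CPM in KO and 12.3, 6.76 and 20.9 CPM in WT. On day 33 the genotypes were level, with a KO over WT ratio of 0.963 (counting interval 0.845 to 1.097), and on day 42 KO was 4.79-fold lower (4.05 to 5.69). Over the 3 days the log2 fold change was -0.93 ± 0.53 (adjusted p = 0.318).

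C3 (ENSMUSG00000024164, chromosome 17, 57203970 to 57228136, minus strand), whose cleavage is the step at which all complement pathways meet, had 74, 1 and 11 counts in KO and 82, 20 and 94 counts in WT. These correspond to 2.21, 0.0373 and 0.279 CPM in KO and 1.75, 0.458 and 2.69 CPM in WT. KO was similar to WT on day 33, with a ratio of 1.26 (counting interval 0.911 to 1.75), but 12.3-fold lower on day 36 (1.97 to 509, on 1 count in KO) and 9.66-fold lower on day 42 (5.16 to 20.0). Over the days the fitted difference was -0.93 ± 1.14 on the log2 scale (adjusted p = 0.649). The means were 0.843 ± 1.19 CPM in KO and 1.63 ± 1.12 CPM in WT (SD, n = 3 each), a gap smaller than either SD. Without KO day 33 the log2 fold change was -3.21 (adjusted p = 0.109), and without day 42 in both genotypes it was 0.067 (adjusted p = 0.982). The genes with the most similar pattern over the 6 libraries were Fndc1, Igf1, Rarres1, Abi3bp and Wisp2, at distances of 0.22 to 0.60 among 10281 genes. Fndc1, the nearest, was at 35.9, 1.12 and 3.73 CPM in KO and 18.6, 5.78 and 27.5 CPM in WT, and Igf1, the growth factor, at 20.3, 1.01 and 2.23 CPM in KO and 11.4, 7.17 and 32.2 CPM in WT. In both genes, as in C3, KO was lowest on day 36 and stayed low on day 42. They were picked for this likeness over the same 6 libraries, so it adds no evidence for the course of C3.

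C4b (ENSMUSG00000073418, chromosome 17, 34728380 to 34743882, minus strand) encodes C4, which joins C2 in the classical C3-cleaving enzyme. It was at 0.807, 0.597 and 0.735 CPM in KO and 0.982, 0.321 and 2.89 CPM in WT. KO hardly varied, while WT had both the lowest and the highest library. The log2 fold change of -0.95 ± 0.73 (adjusted p = 0.457) became 0.13 without WT day 42, so that its sign rested on that library. C4b shares 34.6% of its 50-base words with C4a, the sex-limited protein gene, which was at 0.837, 0.634 and 0.760 CPM in KO and 0.960, 0.344 and 2.38 CPM in WT, and the split between the copies is uncertain. Their sum gave -0.84 ± 0.68 (adjusted p = 0.481).

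Cfb (ENSMUSG00000090231, chromosome 17, 34856374 to 34862518, minus strand), the protease of the alternative pathway, had 2, 3 and 2 counts in KO and 8, 8 and 5 counts in WT and was not tested. The deposited gene row rests on 579 counted bases, and the gene model overlaps Gm20547, with which the Cfb transcripts share 73.0% of their 50-base words. The sum of the distinct Cfb transcripts in the transcript table was larger, at 38, 31 and 57 counts in KO and 64, 67 and 59 counts in WT. As CPM of that table's totals this was 0.980, 1.06 and 1.35 in KO and 1.12, 1.22 and 1.43 in WT. The KO value was lower on each day, by less, and the libraries of the genotypes then overlapped. These small gaps rest on 31 to 67 counts per library and were not tested. Cfd, the protease that activates factor B, was at 0 in all libraries, under the same limit as Mbl1. C2, the classical counterpart of factor B, was at 0.0299 to 0.149 CPM in KO and 0.252 to 0.430 CPM in WT and was too low to be tested.

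The days were then compared within each genotype, without a test, since each value is 1 library. A change was counted where 2 libraries differed at least 2-fold in log2 CPM and the higher reached 5 CPM. In KO, C1ra and Serping1 were lower on day 36 than on day 33, which made 2 of the 9 genes against 2.31% of all genes tested, and 0 of the 9 differed so between days 42 and 36 (0.603% of all genes). In WT, 0 of the 9 differed between days 36 and 33 (0.894% of all genes), and C1ra and Serping1 were higher on day 42 than on day 36, again 2 of the 9, against 4.75% of all genes. From day 33 to day 42, Serping1 was lower in KO (2.76% of all genes counted) and C1ra higher in WT (3.52%). KO against WT on single days counted 2 of the 9 on day 33 (Cd59a higher, Cd55 lower, 4.52% of all genes), 0 on day 36 (5.23%) and 2 on day 42 (C1ra and Serping1 lower, 6.64%). By this size rule the regulators Cd59a and Cd55 differed between genotypes on day 33, and C1ra and Serping1 on day 42. Only 5 of the 9 genes reached 5 CPM in any library. C3, C4b, Cfb and Cd46 did not, so the rule could not count them whatever their ratios.

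**Figure D3:**
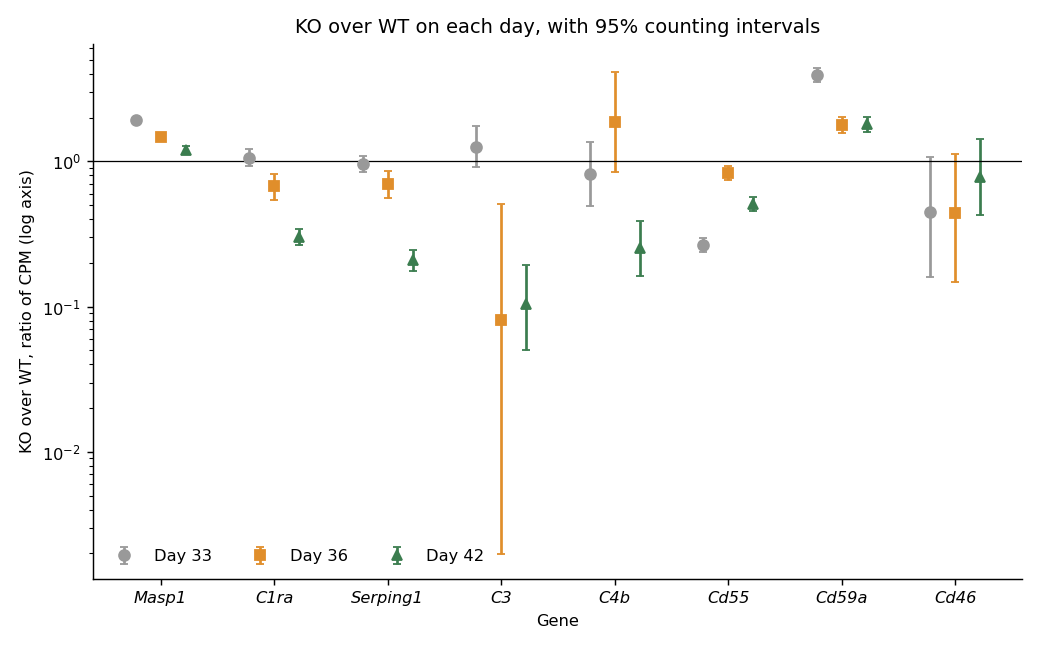
Ratio of KO over WT CPM (log axis) on each day for the 8 tested genes, with exact 95% counting intervals that cover counting error only. C1ra, Serping1 and C3 stand near 1 on day 33 and well below it on day 42, while Cd59a and Masp1 are above 1 on all days.

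A test of genotype by day, with day as a number, called 0 of the 8 genes in the fit and 0 (0%) of all 17233 genes by edgeR, and no other tool was run on it. An unadjusted p below 0.05 was reached by 0 of the 8 and by 1334 genes (7.74%). The fit left 2 residual degrees of freedom. The smallest unadjusted p among the 9 genes was 0.0621, for Masp1, whose log2 level changed by -0.07 ± 0.03 per day in KO relative to WT (adjusted p = 0.641), and Serping1 had -0.25 ± 0.11 (adjusted p = 0.643). The differences between genotypes in the course over days, described above for C1ra, Serping1 and C3, were therefore not called.

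Among the 53 other complement genes found in the table, 30 were tested, and edgeR called 0 higher and 1 lower, against 8.72% of all genes. Their median log2 fold change was -0.87 with 23 of the 30 below 0, and 8 of the 30 had an unadjusted p below 0.05, a share near that of all genes (4700 of 17233). DESeq2 called 5 of the 30, 1 higher (Susd4) and 4 lower (Daf2, Colec12, C1rl and C1s2), against 16.6% of all genes. For C1s2 the adjusted p was 0.0441 by DESeq2 and 0.174 by edgeR. Of the 17 further regulators 11 were tested, 4 had an unadjusted p below 0.05, and 0 were called by edgeR or limma-voom, while DESeq2 called Daf2 lower and Susd4 higher. Susd4, which encodes a membrane protein with complement control repeats, was at 0.718, 2.2 and 2.89 CPM in KO and 0.277, 0.504 and 0.602 CPM in WT (2.08 ± 0.56, adjusted p = 0.0708 by edgeR and 0.00877 by DESeq2). Clusterin, encoded by Clu, which binds pore complexes before they enter membranes, was at 5.29, 0.858 and 1.52 CPM in KO and 5.38, 3.62 and 19.4 CPM in WT (-1.87 ± 0.87, adjusted p = 0.224). Calr, whose product calreticulin is known as a C1q-binding protein, was level at 1119 to 1224 CPM in KO and 1157 to 1267 CPM in WT.

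**Figure D4:**
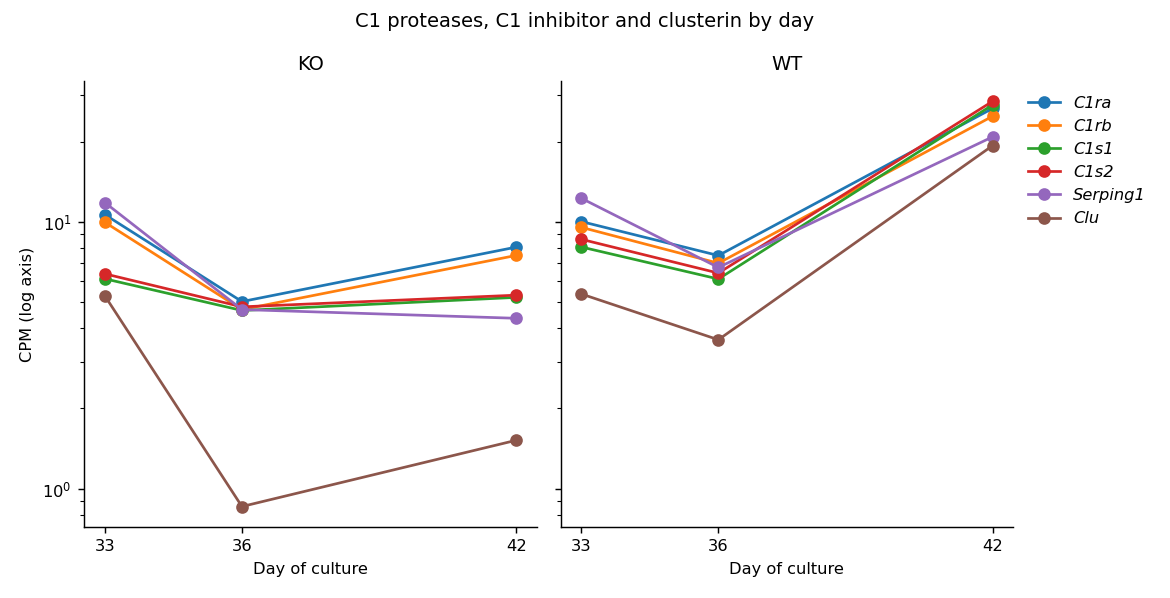
CPM (log axis) of the C1 protease genes, Serping1 and Clu by day of culture, KO in the left panel and WT in the right. All 6 genes have their highest WT value on day 42, where KO stays between 1.52 CPM for Clu and 8.06 CPM for C1ra.

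The C1q chains, the recognition part of C1 and a known macrophage product, were low in both genotypes by day 42. Their sum was 13.5, 0.112 and 0 CPM in KO on days 33, 36 and 42 and 30.5, 4.38 and 0.258 CPM in WT. From day 33 to day 36 C1q and the summed C1 proteases were both lower in both genotypes, and on day 42 WT had its highest protease values with its lowest C1q value. The receptor of C3a, C3ar1, was at 5.71, 4.03 and 3.27 CPM in KO and 10.2, 8.27 and 1.203 CPM in WT (-0.61 ± 0.69, adjusted p = 0.623). C3 had its values beside these: on day 33 both genotypes had C3 and macrophage markers, and on day 36 both were lower. On day 42 WT had 2.69 CPM of C3 with a macrophage sum of 23.5 CPM. Of that sum 12.5 CPM was Cd53, which was about level in WT over the days. Lyz2 was at 1.66 CPM there, after 69.7 CPM in WT on day 33. The part of macrophage RNA in the C3 values of day 33 was not tested, and fewer cells of a type cannot be told from less RNA per cell in such bulk samples.

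Some fibroblast markers also varied between these libraries. The matrix proteoglycan Dcn was at 7.59, 12.8 and 18.4 CPM in KO and 72.1, 23.7 and 170 CPM in WT (-2.78 ± 0.73, adjusted p = 0.0658). Lum was at 2.48, 0.224 and 0.912 CPM in KO and 8.15, 0.985 and 21.3 CPM in WT, and the receptor Pdgfra at 45.5, 18.9 and 14.6 CPM in KO and 97.4, 44.8 and 102 CPM in WT. Lum, like C1ra, Serping1 and C3, thus had its highest value in WT on day 42 and a trough in WT on day 36. Thy1, another surface marker, ran the other way in WT over the days, at 644, 449 and 432 CPM in KO and 1467, 1076 and 762 CPM in WT (-1.12 ± 0.28, adjusted p = 0.0567). Col1a1, Col1a2, Vim and Fn1 had log2 fold changes of -0.16, -0.02, -0.17 and 0.0014. Within WT, Dcn, Pdgfra, Col1a2 and Col3a1 shared the course of Lum. Col1a1, Vim and Fn1 were instead highest in WT on day 36, and Pdgfrb rose from each day to the next. Of the 10 fibroblast markers, all tested, 9 were below 0 in log2 fold change, against 8766 of all 17233 genes tested. Highest in WT on day 42 were 6 of them, against 25.2% of all genes tested. None was called by edgeR (8.72% of all genes) or limma-voom (8.84%). An unadjusted p below 0.05 by edgeR was reached by 5, against 4700 of the 17233 genes. DESeq2 called 4 lower, against 16.6% of all genes called in either direction. The part of fibroblast subtype composition in the complement values was not tested.

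**Figure D5:**
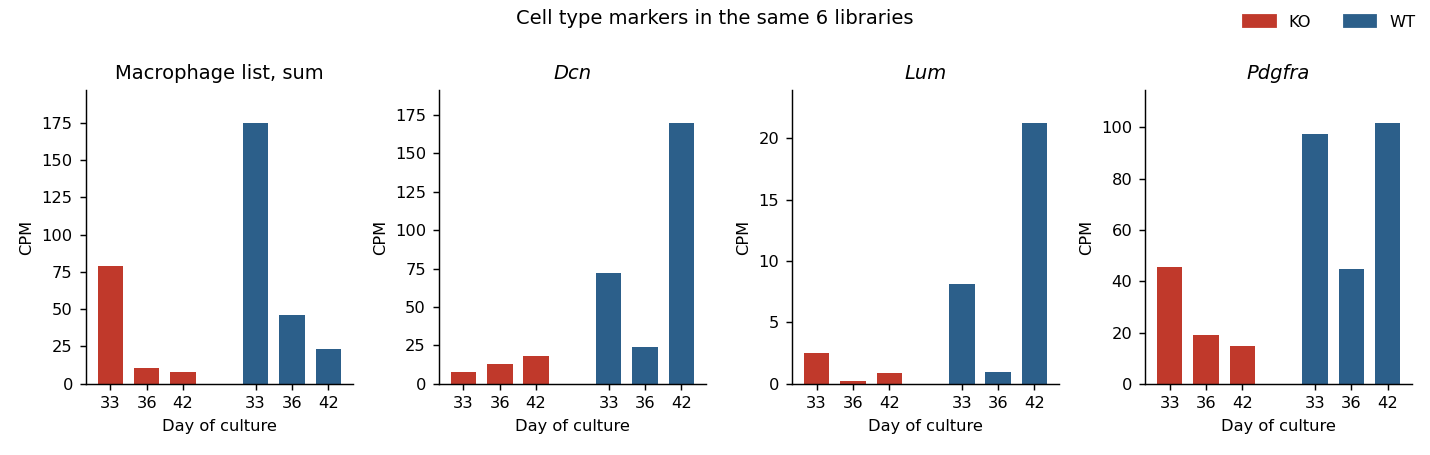
CPM of the summed macrophage list and of the fibroblast markers Dcn, Lum and Pdgfra in each library, KO bars left of WT bars. The macrophage sum is highest on day 33 in both genotypes, while Dcn and Lum are highest in WT on day 42.

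Of 19 receptors and transcription factors listed as inducers of complement genes, all tested, edgeR called 0 higher and 2 lower in KO (10.5%, against 8.72% of all genes). Their median log2 fold change was -0.17, and DESeq2 called 4 lower (16.6% of all genes called). Besides genes of the interferon, interleukin-6, TNF and NF-kB routes, the list held Cebpa, Cebpb, Cebpd, Nr1h3, Il1r1 and Osmr. Ifngr1, a chain of the interferon gamma receptor, was at 44.8, 38.7 and 41.0 CPM in KO and 55.5, 53.2 and 65.7 CPM in WT and fell by 0.49 ± 0.11 on the log2 scale (adjusted p = 0.0472). Il6ra, the interleukin-6 receptor, was at 6.79, 6.19 and 6.97 CPM in KO and 10.5, 9.74 and 10.5 CPM in WT and fell by 0.62 ± 0.11 (adjusted p = 0.0243). Ifngr1 was called in none of the 6 fits that left out 1 library (adjusted p = 0.0535 to 0.184), and Il6ra lost its call without KO day 36 (0.117), KO day 42 (0.0870), WT day 33 (0.113) or WT day 36 (0.0592). With plain library totals neither was called (0.106 for Ifngr1 and 0.0562 for Il6ra). Of 11 acute phase genes 5 were tested and 0 called by edgeR, none with an unadjusted p below 0.05. Among them Serpina3n was at 0.897, 2.39 and 3.395 CPM in KO and 2.28, 0.527 and 16.9 CPM in WT, and Ptx3, a soluble pattern receptor that binds C1q, at 135, 23.0 and 21.9 CPM in KO and 56.6, 25.1 and 102 CPM in WT. Ptx3 was thus low on day 36 in both genotypes, and on day 42 it was low in KO and high in WT.

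Transcript shares within a gene were compared where a transcript held over 300 counts, by an exact two-sided permutation test of 3 against 3 libraries, which cannot go below p = 0.1. For Cd59a the protein-coding transcript of 1695 bases held 53.1 ± 1.08% of the gene's counts in KO and 56.4 ± 4.302% in WT (SD, n = 3 each; exact p = 0.4). The main coding transcript of Serping1 held 85.3 ± 5.31% in KO and 92.6 ± 5.52% in WT (exact p = 0.3), and that of Cd55 58.8 ± 2.96% in KO and 60.6 ± 0.39% in WT (exact p = 0.4). A retained-intron transcript of Cd55 held 32.8, 28.9 and 33.5% in KO and 28.8, 27.4 and 25.5% in WT, the smallest p the design allows (exact p = 0.1) and a gap of 4.50 percentage points. Another retained-intron transcript of Cd55, under 300 counts and so not tested, went the other way. It held 3.0, 3.6 and 3.8% in KO and 6.1, 6.8 and 5.3% in WT. With 3 libraries a genotype no share could be told apart.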

How the data were processed

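Stranded mRNA libraries (TruSeq) had been made from total RNA, per the labels' protocols. The authors deposited expected counts (estimated, fractional) per gene and per transcript and RPKM per gene, per the file headers; 24 further columns stayed unused. Per the submitters' processing notes mm10, Bowtie2 2.2.1 and limma 3.18.13 were involved, without roles; program and strand setting of the counting are not given here. Chi-square over its degrees of freedom, averaged over genes, was 0.833 to 0.843 within groups and 8.55 to 53.0 between them, so the 4 columns were summed, rounded and counted as 1 library. The KO against WT test used edgeR 4.0.16 (TMM, filterByExpr, robust quasi-likelihood, R 4.3.3) over 17233 genes, Benjamini-Hochberg adjusted, threshold 0.05. Days served as replicates; nothing says they were separate cultures, so p-values cover the spread of these 6 libraries alone and may reflect technical variation. SE is the absolute log2 fold change over the square root of F. Log2 CPM had a prior count of 2. Counting intervals are exact 95% intervals for counting error only. Gene coordinates are from GENCODE M21 (GRCm38), matched by gene ID. The result was refitted with DESeq2 1.42.0, voom (limma 3.58.1), other scaling and filters, day as a factor, left-out libraries, days or columns, 24 columns with and without a replicate block, and, chosen after seeing the data, summed near-identical pairs and transcript sums of Cfb. The genes, lists and tests were chosen with earlier results of these data known. Named beyond the 9 genes were other complement genes called or reaching 5 CPM in a library, the 5 most alike in pattern (mean of at least 5 CPM), and, chosen after their values were seen, C2, Cfd, the lectins, and the marker, inducer and acute phase genes given with values. A few genes that these rules select are not reported here.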

Additional observations from a re-analysis of the deposited data

Results flagged for a closer look

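From day 33 to day 42 several genes moved in opposite directions in the genotypes, with the counting intervals of both ratios away from 1. Each direction rests on 1 library per day, and the difference was not tested beyond the fit of genotype by day, which called none of them. In log2 CPM, C3 changed by -2.77 in KO and 0.61 in WT, C1ra by -0.40 in KO and 1.404 in WT, and Serping1 by -1.43 in KO and 0.76 in WT. Cd59a changed by -0.59 in KO and 0.53 in WT, and Masp1 by -0.45 in KO and 0.23 in WT, so that for these the genotypes came closer.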

How the results depend on the processing

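Over the 3 days 1 of the 8 genes tested was called, against 8.72% of all genes. DESeq2 called 3 of the 8 (2 higher, 1 lower), against 16.6% of all genes. Plain library totals called 2, against 1657 of 17233 genes, and day as a factor 0, against 1338. The fits without 1 library called 0 to 1, and those without day 33, 36 or 42 called 0. Treating the 24 columns as libraries called 6 of 7 tested, with or without the replicate block. The same fits called 11107 of all 15279 genes tested, and 11103 with the block. For all genes the count of 1503 of 17233 became 2855 of 17220 by DESeq2 and 24 to 1811 without 1 library. It was 24 and 68 when the KO library of day 36 or 42 was left out, and 254 and 738 for that of day 33 or 36 in WT. Without days 33, 36 and 42 it was 429, 3 and 539. Of the 30 other complement genes tested 1 was called, against 5 by DESeq2, 0 by limma-voom and 0 with library totals. With a mean of at least 5 CPM 0 of 10 were called. The count was 0 to 2 without 1 library, and 2, 0 and 0 without days 33, 36 and 42. Over the 24 columns it was 21 of 26 tested (21 with the replicate block). For these genes it was 0 without column 4 and 1 without each other column. The cause of these shifts was not tested; the block on column numbers pairs parts of 1 library and says nothing about cultures. The log2 fold change of C4b ranged from -1.42 without WT day 36 to 0.13 without WT day 42 and was 0.11 without day 42, and that of C3 was 0.067 without day 42. On day 36, 1 gene in place of 0 was 2-fold apart with library totals. Cd59a kept its direction under all 23 alternatives (0.84 to 1.45), past the threshold in 15. Among the 15 were the fits on the 24 columns and those without 1 column, which reuse the same libraries. The call was lost when any whole day was left out. Low counts limit C3, C4b, Cfb and Cd46.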
